A study of Gallus gallus with 16 samples.

Results

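Interferon response genes are the genes that animal cells switch on when they sense viral nucleic acid or receive an interferon, together with the sensors, receptors and transcription factors that carry this signal. The set described here is a list of 34 gene symbols. A gene counted as measured where the platform annotation gives its symbol alone on a probe set, and the probe set with the highest mean over all 16 arrays stood for it. On this rule 30 of the 34 were measured, out of 11528 genes with a symbol of their own. DHX58, STAT2, TRIM25 and USP18 are not named alone on a probe set and have no value here. Of the measured genes 29 had a single probe set, and DDX60 had 2.

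Arrays were run on jejunum, a section of the small intestine, taken on day 21 from 16 male broilers, which are meat-type chickens. Each bird gave 1 array, and 4 birds ate each of 4 diets lettered A, E, F and H. According to the series title the work concerned plant essential oils (star anise, thyme, rosemary and oregano are named) together with saponins. What each letter stands for, and which of them is the control, is not in the labels. No infection or vaccination is named in the labels, and sex, age and tissue were the same in all groups. Birds are written below as the diet letter with the replicate number, so that A1 is replicate 1 of diet A. Replicate numbers follow the order of the sample titles within each diet and do not match birds between diets. Titles of the samples carry numbers, up to 25 for replicates 1 and 2 of every diet and over 25 for replicates 3 and 4, and these are called the lower and the upper range. The meaning of these numbers is unknown here.

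Values are log2 intensities as deposited, so a difference of 1 is a 2-fold difference on that reading. Array medians lay between 5.94 and 6.10 and the lower quartiles between 4.45 and 4.61. The lowest value of any measured interferon response gene on any array was 5.23, above all of these lower quartiles. The 9 measured enterocyte markers had means between 8.14, for the intestinal transcription factor CDX2, and 12.90, for the brush border aminopeptidase ANPEP. Between the ranges of title numbers 1746 of 20804 probe sets passed limma's moderated test with Benjamini-Hochberg adjustment at 0.05, so values within the ranges are given beside diet differences.

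In outline, viral double-stranded RNA in the cytosol is bound by sensors of the RIG-I-like family, of which chickens have MDA5, encoded by IFIH1, and lack RIG-I. Sensor signals lead through interferon regulatory factors to the release of interferons, and these act on receptors of the same and neighbouring cells. Receptor-bound kinases then activate STAT proteins, which switch on effector genes such as MX1, RSAD2 and EIF2AK2 and, with them, inhibitors such as SOCS1 that end the signal. In the intestine the epithelium and the immune cells beneath it both carry this machinery, and the RNA measured here came from whole tissue. In such bulk samples fewer cells of a type and less RNA per cell cannot be told apart.

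Single birds of a diet differed widely in these genes. The median SD of the 30 genes within diets was 0.44, against 0.24 over all 20804 probe sets, and 28 of the 30 had an SD over the 16 birds above that of the median probe set. Ranked among all probe sets by SD over the 16 birds, RSAD2 stood at percentile 99.5, SOCS1 at 99.0 and LY6E at 98.8. IFNGR1, at percentile 20.1, and IRF2, at 42.9, varied least.

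All 30 lowest values were found in 5 of the 16 birds, which is a description of birds noticed in the values and not a grouping by the study. E4 was lowest for 9 genes, F1 for 7, A1 for 6, and E3 and H4 for 4 each. Over all probe sets the same 5 birds held 33.9% of the lowest values. The highest values were spread over 8 birds, with 11 in H1, 6 in H3 and 5 in A3, and these 8 birds held 49.6% of the highest values over all probe sets. Averaged over the 30 genes as a deviation from each gene's mean over 16 birds, levels were -0.53, 0.04, 0.44 and 0.29 in diet A, 0.05, 0.03, -0.60 and -0.64 in diet E, -0.50, 0.26, 0.37 and 0.19 in diet F, and 0.52, 0.15, 0.41 and -0.48 in diet H. Within diet A the deviation was lowest in A1, within diet F in F1 and within diet H in H4, while in diet E both birds of the upper range were low and both of the lower range were near the mean. The bird means of every diet overlapped those of every other diet.

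**Figure D1:**
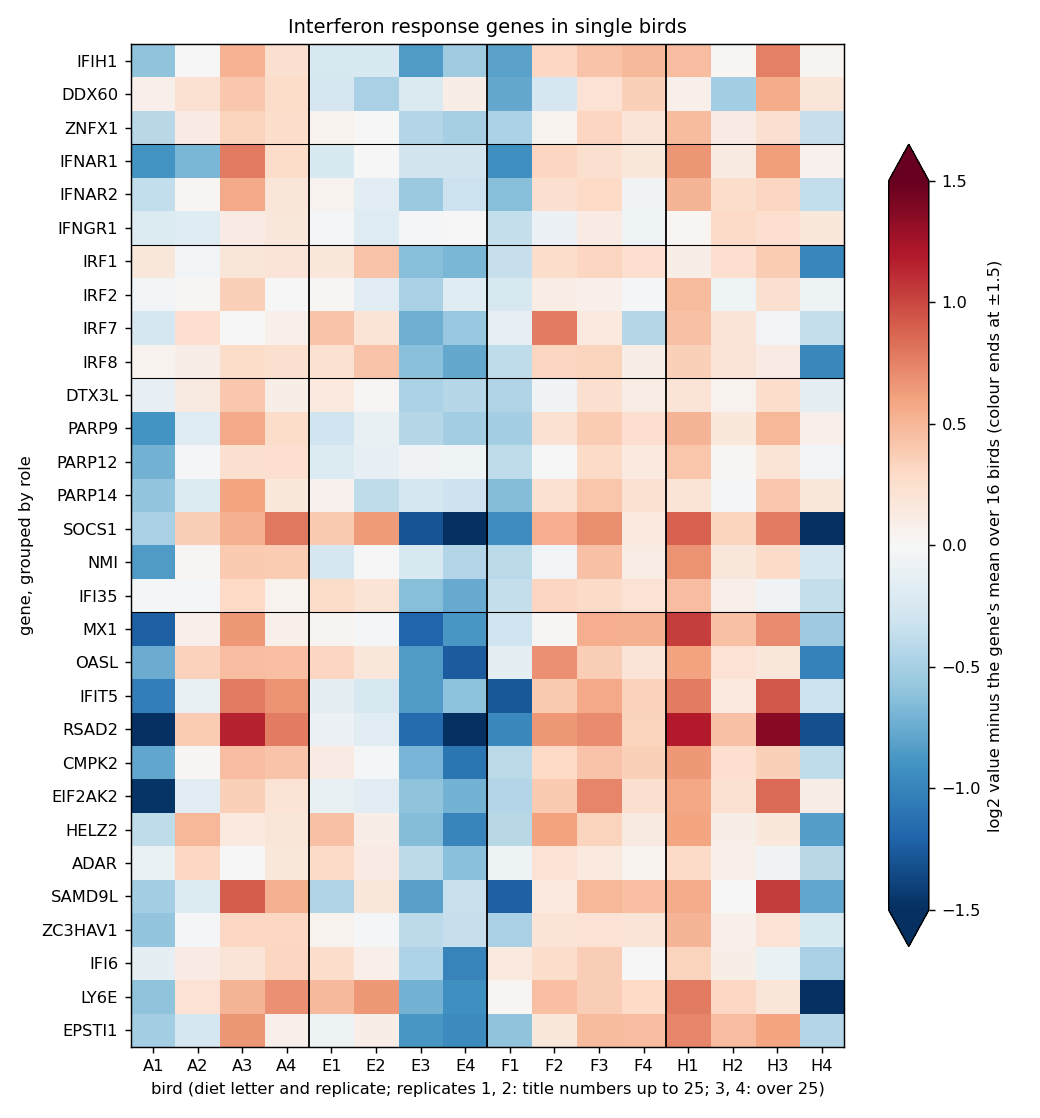
Colour shows the log2 value of each of the 30 measured genes (rows, grouped by role) in each of the 16 birds (columns, diet letter and replicate) minus that gene's mean over all birds, with black lines between diets and roles. The mostly blue columns are A1, E3, E4, F1 and H4, which hold all 30 lowest values.

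Different low birds were lowest for different genes. A1 had the lowest value of PARP9, PARP12, NMI, MX1, EIF2AK2 and ZC3HAV1, and F1 that of DDX60, IFNAR1, IFNAR2, IFNGR1, PARP14, IFIT5 and SAMD9L. H4 was lowest for the transcription factors IRF1 and IRF8, for the signal inhibitor SOCS1 and for LY6E. E3 was lowest for IFIH1, IRF2, IRF7 and DTX3L, and E4 for ZNFX1, IFI35, OASL, RSAD2, CMPK2, HELZ2, ADAR, IFI6 and EPSTI1.

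Among the sensors, IFIH1 (probe set 15533354) binds long double-stranded RNA. Its values in replicates 1 to 4 were 8.04, 8.64, 9.17 and 8.89 in diet A, 8.40, 8.42, 7.79 and 8.11 in diet E, 7.84, 8.95, 9.07 and 9.13 in diet F, and 9.11, 8.67, 9.40 and 8.68 in diet H. All diet E birds lay at 8.42 or below, all diet H birds at 8.67 or above, and the diets A and F spanned both. DDX60, a helicase linked in mammals to the sensing of viral RNA, read 10.98, 11.14, 11.31 and 11.19 in diet A, 10.66, 10.42, 10.69 and 11.01 in diet E, 10.14, 10.66, 11.12 and 11.27 in diet F, and 10.99, 10.40, 11.47 and 11.09 in diet H on probe set 15508840. Its lowest bird was F1 and its highest H3, and all 4 diets overlapped. The second probe set of DDX60 had a mean over 16 birds of 10.56, against 10.91 for this one, and kept the order of diet means except that diet H lay above diet A. ZNFX1, a helicase-domain protein that senses viral RNA in mammals, ranged from 10.36 in E4 to 11.34 in H1.

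Of the receptor chains, IFNAR1, a chain of the type I interferon receptor, had values of 7.71, 7.92, 9.39 and 8.88 in diet A, 8.38, 8.61, 8.33 and 8.33 in diet E, 7.68, 8.93, 8.85 and 8.77 in diet F, and 9.27, 8.74, 9.23 and 8.67 in diet H (probe set 15391902). A1, A2 and F1 lay under 8, and every other bird lay above it. IFNAR2, the other chain of that receptor, ranged from 8.84 in F1 to 10.04 in A3. IFNAR1 and IFNAR2 lie close together on the chromosome, with IL10RB between them in the RefSeq gene order of the assembly GRCg7b, and both had their lowest value in F1 and their highest in A3. IFNGR2, of the second list below, is the direct neighbour of IFNAR1 and did not share these birds. Its lowest value was 8.96 in F4 and its highest 9.81 in F2. IFNGR1, the ligand-binding chain of the interferon gamma receptor, read 9.44, 9.46, 9.76 and 9.81 in diet A, 9.61, 9.45, 9.62 and 9.64 in diet E, 9.28, 9.56, 9.77 and 9.58 in diet F, and 9.67, 9.93, 9.90 and 9.80 in diet H (probe set 15489552). All of its diet H values, 9.67 to 9.93, were above all of its diet E values, 9.45 to 9.64.

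Interferon regulatory factors bind the promoters of interferons and of response genes. IRF1, an activator induced by interferon gamma, read 10.11, 9.90, 10.13 and 10.14 in diet A, 10.11, 10.37, 9.30 and 9.26 in diet E, 9.60, 10.21, 10.26 and 10.19 in diet F, and 10.03, 10.19, 10.32 and 8.97 in diet H (probe set 15426092). E3, E4 and H4 lay at 9.30 or below, F1 lay at 9.60, and the remaining birds at 9.90 or above. IRF7, which drives type I interferon genes, read 8.87, 9.39, 9.13 and 9.21 in diet A, 9.56, 9.34, 8.40 and 8.56 in diet E, 9.01, 9.90, 9.28 and 8.71 in diet F, and 9.57, 9.33, 9.09 and 8.77 in diet H (probe set 15514925), lowest in E3 and highest in F2. IRF2, which can oppose IRF1, read 8.86, 8.92, 9.26 and 8.89 in diet A, 8.92, 8.73, 8.41 and 8.72 in diet E, 8.66, 9.01, 8.97 and 8.88 in diet F, and 9.37, 8.83, 9.14 and 8.82 in diet H, a span of 0.96 over the 16 birds. IRF8, a factor of myeloid and B cells, had its lowest values of 9.48, 9.67 and 9.81 in H4, E4 and E3, the same birds as IRF1, and its highest of 10.87 in E2.

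Regulators of the signal came next. SOCS1, an inhibitor of the receptor kinases that is itself induced by interferon, read 6.55, 7.40, 7.56 and 7.82 in diet A, 7.42, 7.67, 5.73 and 5.44 in diet E, 6.10, 7.58, 7.73 and 7.18 in diet F, and 7.91, 7.37, 7.80 and 5.23 in diet H (probe set 15428064). H4, E4 and E3 lay between 5.23 and 5.73, F1 and A1 at 6.10 and 6.55, and the remaining birds at 7.18 or above. The span of SOCS1 over the birds was 2.68 on the log2 scale, or 6.43-fold. PARP9, which forms a complex with the ubiquitin ligase DTX3L, read 8.54, 9.24, 9.999 and 9.71 in diet A, 9.14, 9.33, 9.01 and 8.92 in diet E, 8.93, 9.67, 9.82 and 9.69 in diet F, and 9.95, 9.60, 9.94 and 9.51 in diet H. A1 was its lowest bird, and the highest diet E bird, at 9.33, lay under the lowest diet H bird, at 9.51. DTX3L, its partner, ranged from 8.21 in E3 to 9.09 in A3, and PARP14, an ADP-ribosyltransferase, from 9.48 in F1 to 10.73 in A3. Matched by symbol, PARP14, DTX3L and PARP9 are neighbours in the RefSeq gene order of GRCg7b, and all peaked in A3, but their lowest birds differed. PARP12, another ADP-ribosyltransferase, ranged from 9.58 in A1 to 10.71 in H1, and the partner proteins NMI and IFI35 from 8.64 in A1 to 10.16 in H1 and from 9.24 in E4 to 10.45 in H1. The values of IFI35 were 9.96, 9.98, 10.29 and 10.04 in diet A, 10.27, 10.20, 9.35 and 9.24 in diet E, 9.64, 10.32, 10.28 and 10.21 in diet F, and 10.45, 10.07, 9.94 and 9.64 in diet H.

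The antiviral effectors held the widest spans, 3.47 for LY6E and 3.07 for RSAD2. MX1, a dynamin-like GTPase, read 9.81, 11.11, 11.68 and 11.11 in diet A, 11.07, 11.01, 9.84 and 10.16 in diet E, 10.73, 11.05, 11.58 and 11.56 in diet F, and 12.07, 11.47, 11.74 and 10.49 in diet H (probe set 15392223). A1 and E3 were its lowest birds and H1 its highest, a span of 4.78-fold. IFIT5, which binds the ends of viral RNA in mammals, read 9.87, 10.79, 11.68 and 11.58 in diet A, 10.76, 10.66, 10.05 and 10.29 in diet E, 9.63, 11.30, 11.47 and 11.25 in diet F, and 11.68, 11.05, 11.84 and 10.58 in diet H (probe set 15526537). F1, A1, E3, E4 and H4 were its lowest birds, and the diets overlapped.

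RSAD2 encodes viperin, which makes a chain-terminating nucleotide, and CMPK2 a nucleotide kinase that can supply its precursor. RSAD2 read 8.10, 10.10, 10.87 and 10.48 in diet A, 9.63, 9.56, 8.56 and 8.02 in diet E, 8.75, 10.36, 10.42 and 10.05 in diet F, and 10.90, 10.16, 11.08 and 8.40 in diet H (probe set 15491916). CMPK2 read 10.80, 11.59, 12.04 and 12.01 in diet A, 11.70, 11.56, 10.88 and 10.48 in diet E, 11.17, 11.87, 12.01 and 11.93 in diet F, and 12.23, 11.83, 11.93 and 11.20 in diet H (probe set 15499213). The span of RSAD2 was 8.38-fold, and that of CMPK2 3.38-fold. The 2 genes are direct neighbours in GRCg7b, E4 and A1 were the 2 lowest birds of each gene, and they were followed by H4 and E3 for RSAD2 and by E3 and F1 for CMPK2.

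EIF2AK2 encodes PKR, the kinase that stops translation on double-stranded RNA, and it read 7.84, 9.14, 9.67 and 9.52 in diet A, 9.20, 9.15, 8.71 and 8.61 in diet E, 8.87, 9.71, 10.05 and 9.56 in diet F, and 9.89, 9.54, 10.16 and 9.41 in diet H (probe set 15487909). A1, at 7.84, was its lowest bird, followed by E4 at 8.61, and all diet H birds lay above all diet E birds. OASL, the chicken 2'-5' oligoadenylate synthetase, read 9.98, 11.06, 11.18 and 11.17 in diet A, 11.04, 10.89, 9.87 and 9.47 in diet E, 10.58, 11.41, 11.09 and 10.91 in diet F, and 11.32, 10.93, 10.89 and 9.71 in diet H (probe set 15552273). E4, H4, E3 and A1 lay under 10 and every other bird above 10.5.

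IFI6, an interferon-inducible membrane protein, read 12.79, 13.05, 13.12 and 13.26 in diet A, 13.19, 13.01, 12.47 and 11.93 in diet E, 13.08, 13.20, 13.30 and 12.94 in diet F, and 13.27, 13.02, 12.83 and 12.45 in diet H (probe set 15452865). Its diets A and F spanned 12.79 to 13.30, while diet E reached down to 11.93 in E4 and diet H to 12.45 in H4. LY6E, a membrane-anchored protein that affects virus entry in mammals, was singled out after its values were seen, with 11.84, 12.66, 12.95 and 13.13 in diet A, 12.93, 13.09, 11.73 and 11.52 in diet E, 12.47, 12.89, 12.81 and 12.74 in diet F, and 13.22, 12.75, 12.62 and 9.75 in diet H (probe set 15464051). H4 was lowest at 9.75, and E4 followed at 11.52. EPSTI1, another interferon-induced gene, read 8.53, 8.78, 9.70 and 9.12 in diet A, 8.97, 9.14, 8.17 and 8.09 in diet E, 8.44, 9.20, 9.51 and 9.50 in diet F, and 9.77, 9.50, 9.63 and 8.60 in diet H, lowest in E4, E3 and F1. The remaining effectors, namely the helicase HELZ2, the RNA-editing enzyme ADAR, SAMD9L and the CpG-binding antiviral protein ZC3HAV1, had spans of 1.60, 0.94, 2.28 and 1.098.

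**Figure D2:**
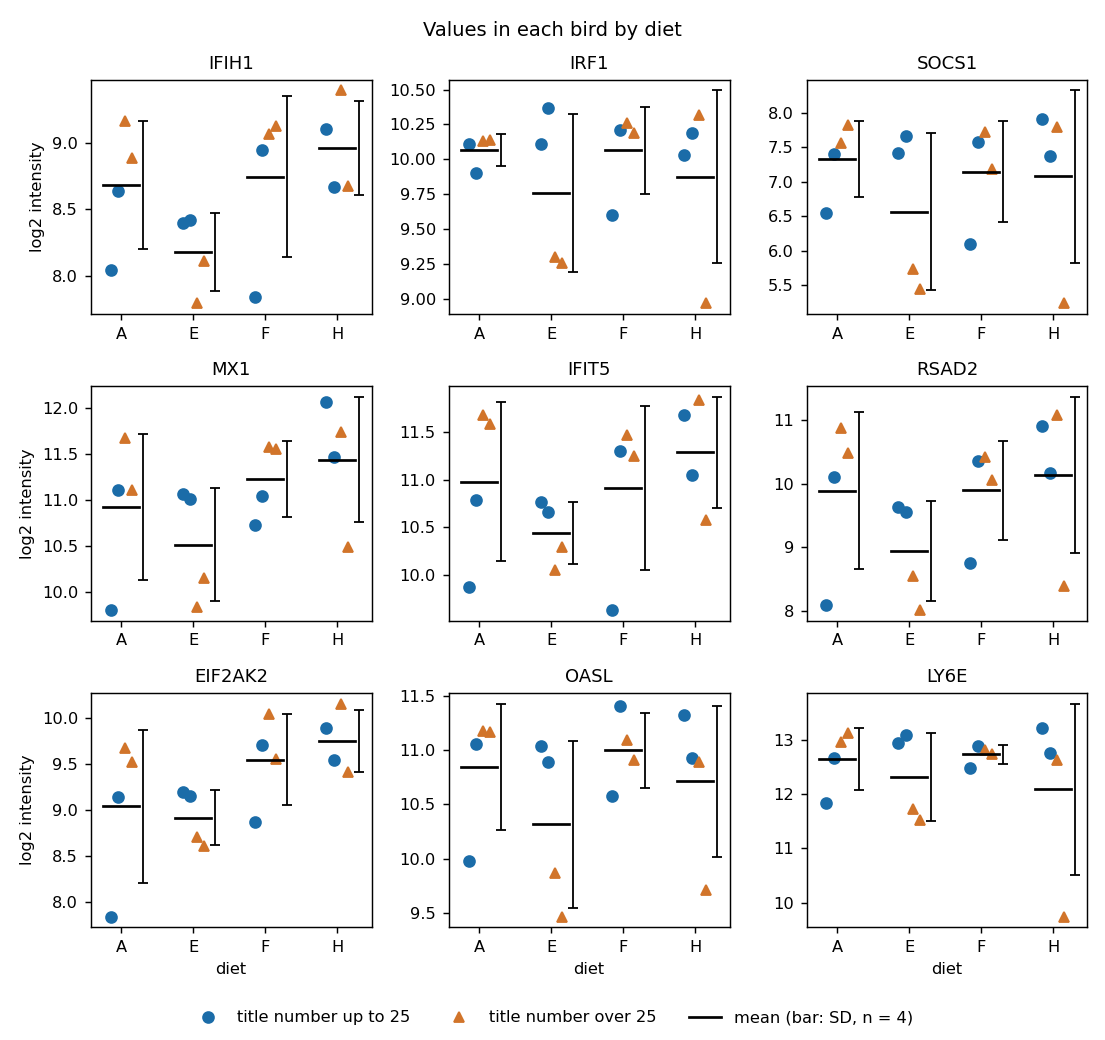
Points are log2 intensities in each bird for 9 genes of the set by diet, blue circles for the lower and orange triangles for the upper range of title numbers, with the mean of 4 birds as a line and the SD as a bar. E3 and E4, the triangles of diet E, lie under its circles in each of the 9 panels, and LY6E shows H4 at 9.75. The panels are a selection from the 30 genes. Among genes not shown, E3 and E4 both lay above E1 and E2 for DDX60, IFNGR1 and PARP12. They overlapped them for PARP14, NMI and SAMD9L. The share of such separations over all probe sets was not computed.

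Over the 4 diets together none of the 30 genes passed limma's moderated F test after Benjamini-Hochberg adjustment over all 20804 probe sets (background 0%). None had an unadjusted p under 0.05 either (background 8.15%). The smallest p belonged to EIF2AK2, whose diet means, from A to H, were 9.04 ± 0.83, 8.92 ± 0.30, 9.55 ± 0.50 and 9.75 ± 0.34 (SD, n = 4; limma adjusted p = 0.648). IFIH1 followed, with 8.68 ± 0.48, 8.18 ± 0.30, 8.75 ± 0.61 and 8.96 ± 0.35 (SD, n = 4; limma adjusted p = 0.654). The diet means of EIF2AK2 ran from 8.92 to 9.75, with an SD within diets of 0.54. Those of IFIH1 ran from 8.18 to 8.96, with an SD within diets of 0.45.

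Between diets A and E every one of the 30 genes had a lower mean in diet E, by a median of -0.32 on the log2 scale and between -0.94 for RSAD2 and -0.04 for IFNGR1. Over all probe sets 45.2% had a lower mean in diet E and the median difference was 0.03. Without E4 the median of the 30 genes was -0.20, and without A1 it was -0.50. The genes vary together from bird to bird, so these 30 directions are not 30 separate observations. DDX60 had means of 11.15 ± 0.14 in diet A and 10.69 ± 0.24 in diet E, a difference of -0.46 (SE 0.24), and IRF2 had 8.98 ± 0.19 and 8.70 ± 0.21, a difference of -0.29 (SE 0.151; SD, n = 4; limma adjusted p = 0.671 for both). For IRF2 it was -0.06 in the lower range and -0.51 in the upper. None of the 30 passed (background 0%), none had an unadjusted p under 0.05 (background 7.71%), and in none did the birds of the 2 diets separate (background 2.49% higher and 1.37% lower in diet E).

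For most of the genes that difference lay in the upper range. There, E3 and E4 both lay below A3 and A4 for 30 of 30 genes (background 19.8%), and the median of the differences was -0.88 where all probe sets had 0.04. In the lower range E1 and E2 were lower on average for 2 of the 30 genes, DDX60 and IRF2 (background 46.8%), and the median was 0.26 where all probe sets had 0.02. Both lower-range E birds lay above both A birds for 7 genes (background 19.7%) and below both for 1 (background 15.9%). For RSAD2 the difference was -2.39 in the upper range and 0.50 in the lower, for SOCS1 -2.11 and 0.57, for OASL -1.50 and 0.45, and for LY6E -1.42 and 0.76. DDX60 was lower in diet E in both ranges, and it alone of the 30 had the more negative difference in the lower range, at -0.52 against -0.40.

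The change of the E minus A difference from the lower to the upper range was tested directly, with a mean for each diet in each range. It was below 0 for 29 of 30 genes (background 48.9%), with a median of -1.16. For CMPK2 it was -1.78 (SE 0.45), for IFI6 -1.18 (SE 0.302) and for IFI35 -1.13 (SE 0.304; limma adjusted p = 0.496 for all 3). No gene of the set passed after adjustment (background 0%), and 23 of 30 had an unadjusted p under 0.05 with a negative sign (background 3.73%). The joint F test of all diets by range gave the same 0 calls (background 0%), with 14 of 30 at an unadjusted p under 0.05 (background 6.39%). Its 3 smallest p belonged to IFI35, EPSTI1 and CMPK2 (limma adjusted p = 0.734). Each cell of this fit holds 2 birds, and all the genes share them. The 2 birds of a cell also have neighbouring title numbers, such as 36 and 37 for E3 and E4. Anything that such neighbours share cannot be told apart here from a change of the diet difference between ranges.

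**Figure D3:**
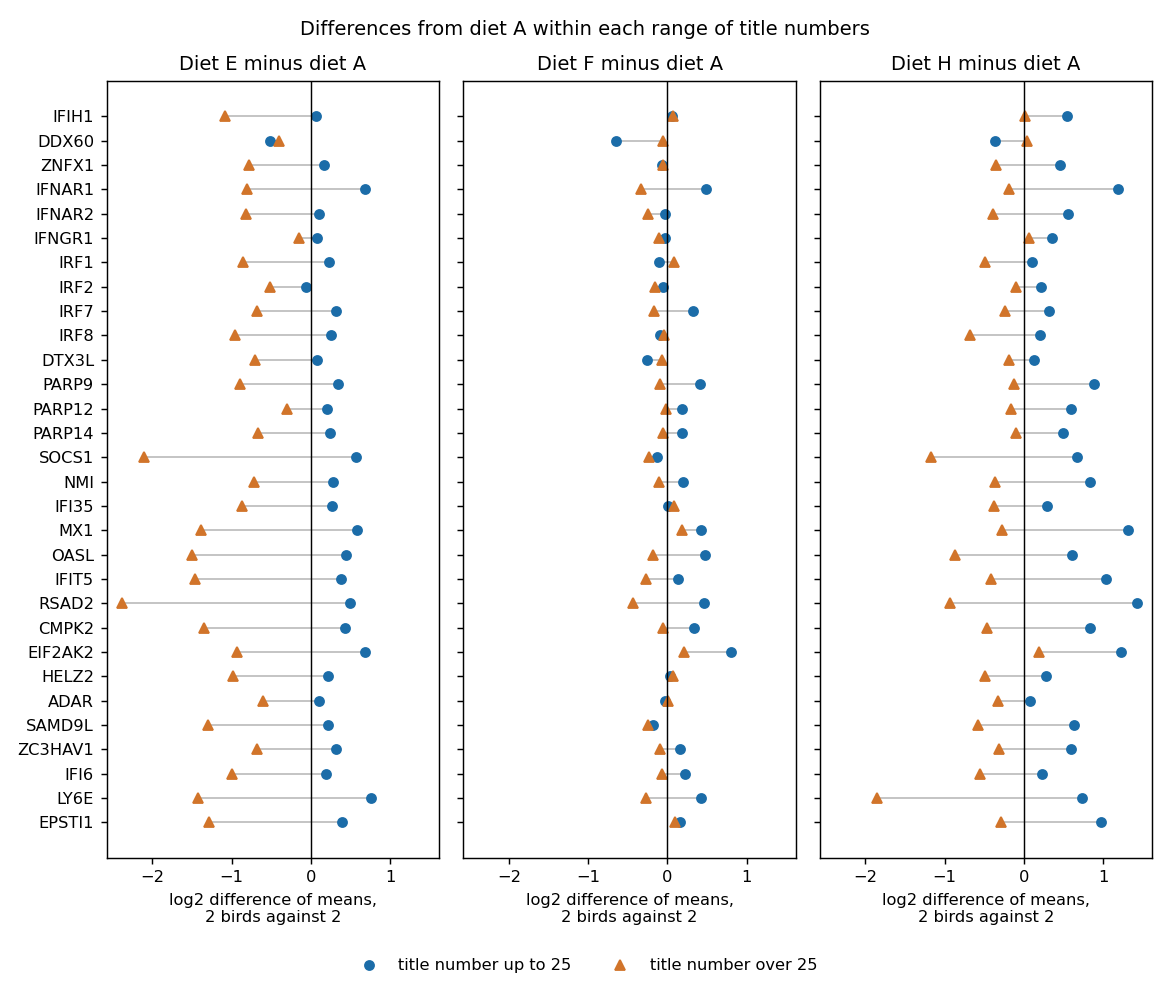
For each of the 30 genes, blue circles give the log2 difference of diet E, F or H from diet A among birds of the lower range of title numbers and orange triangles that of the upper range, 2 birds against 2. In the diet E panel all triangles lie below 0 and 28 of the 30 circles above it.

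Diets H and A also differed in opposite directions in the ranges. In the lower range 29 of 30 genes had a higher mean in diet H (background 50.4%), with a median of 0.57, and H1 and H2 both lay above A1 and A2 for 20 (background 25%). In the upper range 26 of 30 had a lower mean in diet H (background 49.6%), with a median of -0.34, and both H birds lay below both A birds for 12 (background 16.7%). A1 is low and H1 high in the lower range, and H4 is low in the upper range. Over all birds the median was 0.07, with 19 genes higher (background 50.2%) and 11 lower, and it was -0.08 without A1 and 0.24 without H4. EIF2AK2 had the smallest p, with a difference of 0.71 (SE 0.343; limma adjusted p = 0.451), which was 0.31 without A1, 1.23 in the lower range and 0.19 in the upper. IFNGR1 followed with 0.21 (SE 0.124; limma adjusted p = 0.53), or 0.35 and 0.07 by range. No gene of the set passed (background 0.00481%), and none had an unadjusted p under 0.05 (background 11.5%). The change of this difference between ranges was negative for 29 of 30 genes (background 49.7%), 12 of them with an unadjusted p under 0.05 (background 3.83%) and 0 after limma's adjustment (background 0%). The comparisons with diet A share their diet A birds, so their values are not independent of each other.

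Between diets F and A the differences had both signs. The median difference was 0.04, with 18 of 30 genes higher in diet F (background 55.1%) and 12 lower, and the differences lay between -0.35 and 0.51. Without A1 the median was -0.14, and without F1 it was 0.19. EIF2AK2 differed by 0.51 (SE 0.343) and DDX60 by -0.35 (SE 0.24; limma adjusted p = 0.763 for both). Without A1 the difference of EIF2AK2 was 0.11, and without F1 that of DDX60 was -0.13. In the lower and the upper range EIF2AK2 differed by 0.80 and 0.21, and DDX60 by -0.65 and -0.05. None passed (background 0%) and none had an unadjusted p under 0.05 (background 6.83%). Among birds of the lower range the median was 0.15 and among those of the upper range -0.07, and the change between ranges had 0 of 30 genes at an unadjusted p under 0.05 (background 4.68%) and 0 after adjustment (background 0.0192%).

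Diet H lay above diet E for 29 of the 30 genes, LY6E being the exception, with a median difference of 0.37 where all probe sets had -0.03 (background 45.1% above 0). For LY6E, H4 read 9.75 and the other diet H birds 12.62 or above, against 11.52 to 13.09 in diet E. Between these diets the median of the 30 genes had the same sign in both ranges, at 0.27 for lower-range and 0.49 for upper-range birds. Diet H had the lower mean for 5 of 30 genes in the lower range (background 52.4%) and for 1 in the upper (background 54%). Both H birds lay above both E birds for 15 genes in the lower range (background 21.3%) and for 18 in the upper (background 15.5%). The genes with the smallest p were IFIH1, with means of 8.18 ± 0.30 in diet E and 8.96 ± 0.35 in diet H, a difference of 0.79 (SE 0.292) or 1.72-fold, and PARP9, with 9.10 ± 0.18 and 9.75 ± 0.23, a difference of 0.65 (SE 0.263) or 1.57-fold (SD, n = 4; limma adjusted p = 0.506 and 0.512). All 4 diet H birds lay above all 4 diet E birds for 6 of 30 genes (background 2.1%), namely IFIH1, IFNAR1, IFNGR1, PARP9, PARP12 and EIF2AK2. The reverse was seen for 0 (background 3.23%). The lowest diet H and highest diet E values lay close for PARP12 (10.25 and 10.24), IFNGR1 (9.67 and 9.64) and IFNAR1 (8.67 and 8.61). Gaps were wider for IFIH1, PARP9 and EIF2AK2. All of these genes share the same birds and are not separate observations. MX1, with 10.52 ± 0.61 and 11.44 ± 0.68, differed by 0.92 (SE 0.407), and RSAD2, with 8.94 ± 0.79 and 10.14 ± 1.22, by 1.20 (SE 0.648), but H4 lay within the diet E values of both. No gene of the set passed limma's test after adjustment (background 0%), and 6 of 30 had an unadjusted p under 0.05, all higher in diet H (background 3.86%). They are not the same 6 genes as those without overlap, since IFNAR1, IFNGR1 and PARP12 were not among them. PARP9 kept a difference between 0.58 and 0.73 when each bird was left out in turn, and IFIH1 between 0.64 and 0.88. By range, from lower to upper, IFIH1 differed by 0.48 and 1.09, PARP9 by 0.54 and 0.76, MX1 by 0.73 and 1.12, and RSAD2 by 0.93 and 1.46.

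**Figure D4:**
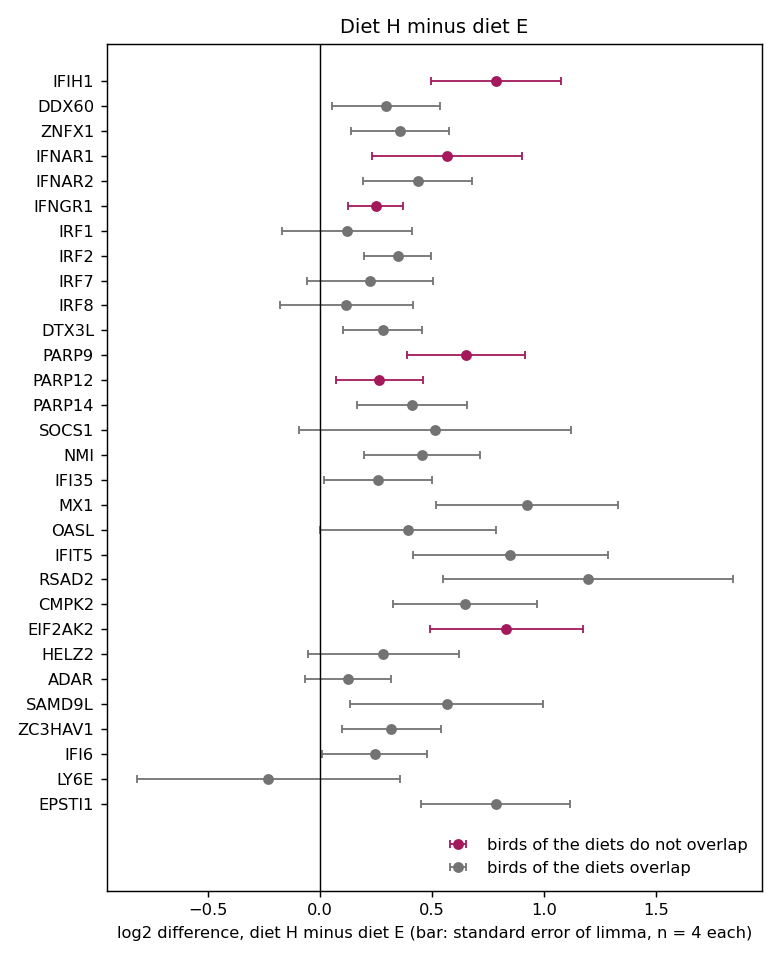
Points are log2 differences of diet H minus diet E for the 30 genes with the standard error of limma as a bar, in purple where all 4 birds of diet H lay above all 4 of diet E. The 6 purple points are IFIH1, IFNAR1, IFNGR1, PARP9, PARP12 and EIF2AK2, and LY6E lies below 0.

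Diet F lay above diet E for 29 of 30 genes as well (background 49.2%), IFNGR1 being the exception at -0.03, with a median of 0.31, or 0.20 without E4 and 0.50 without F1. IFI6 differed by 0.48 (SE 0.236) and IFIH1 by 0.57 (SE 0.292), and limma's adjusted p was 0.9998 for both. Without E4 the difference of IFI6 was 0.24, and without F1 that of IFIH1 was 0.87. Nearly all of both differences lay among upper-range birds, with 0.92 for IFI6 and 1.15 for IFIH1 there and 0.04 and -0.01 among lower-range birds. In the upper range F3 and F4 both lay above E3 and E4 for 29 of 30 genes, IFNGR1 being the exception (background 19.3%), with a median of 0.92. In the lower range the median was -0.14, and no gene had both F birds above both E birds (background 17.5%). None of the 30 passed (background 0%) and none had an unadjusted p under 0.05 (background 2.95%). These values share the diet E birds with the comparison of diets H and E.

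Diets F and H differed by a median of 0.14, with 20 of 30 genes higher in diet H (background 45.2%). IFNGR1 had 9.55 ± 0.20 in diet F and 9.83 ± 0.12 in diet H, a difference of 0.28 (SE 0.124; SD, n = 4; limma adjusted p = 0.842). IFNAR1 differed by 0.42 (SE 0.335; limma adjusted p = 0.842), or 0.13 without F1. By range, IFNGR1 differed by 0.38 and 0.18, and IFNAR1 by 0.70 and 0.14, lower range first. None passed (background 0%), and IFNGR1 alone had an unadjusted p under 0.05 (background 5.27%, 2.02% higher in diet H). Lower-range birds gave a median of 0.42 and upper-range birds one of -0.28, and over all birds but F1 it was -0.08.

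Set against each other with the diets in the fit, the ranges of title numbers gave a median difference of 0.02 for the 30 genes, 16 higher in the upper range (background 38.4%) and 14 lower. DDX60 rose in the upper range by 0.47 (SE 0.122; limma adjusted p = 0.0288), 1 of 30 genes called (background 8.39%). Its second probe set differed by 0.90 in the same direction. The call was lost without any 1 of E2, E4, F3, F4, H2 or H3, with limma adjusted p between 0.0504 and 0.0611. IRF7 differed by -0.48 (SE 0.16; limma adjusted p = 0.0803), and passed without A1 or without F1 (limma adjusted p = 0.0345 and 0.0433). IFNGR1 differed by 0.18 (SE 0.0723; limma adjusted p = 0.128). With 5 of 30 genes at an unadjusted p under 0.05 (background 25.2%), the set had no larger share of low p-values than the array as a whole.

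Other genes of the pathway came from a second list of 57, of which 38 were measured. The probe set with the highest mean again stood for each gene, out of 4 for MOV10 and for GBP1 and 2 for RNF213 and for TRANK1. Values of their other probe sets are not given here. Between diets none of the 38 passed in any of the 6 pairs, and the counts at an unadjusted p under 0.05 were 1 in E minus A (background 7.71%), 1 in F minus A (background 6.83%), 7 in H minus A (background 11.5%), 0 in F minus E (background 2.95%), 6 in H minus E (background 9.52%) and 4 in H minus F (background 5.27%). Of the interferons, IFNA3, IFNB and IFNK are not named alone on a probe set and have no value here, and 3 others were measured. IFNG, which encodes interferon gamma, lay between 2.19 and 2.97 on all arrays, under every lower quartile. IFNW1, a type I interferon gene, read 4.96, 5.57, 5.54 and 5.78 in diet A, 5.67, 5.79, 4.76 and 5.76 in diet E, 4.73, 6.22, 6.27 and 5.23 in diet F, and 5.72, 5.43, 5.73 and 4.67 in diet H. IFNL3, an interferon lambda gene, read 4.88, 5.66, 6.14 and 5.54 in diet A, 5.90, 6.14, 4.99 and 5.46 in diet E, 5.15, 6.39, 6.13 and 5.59 in diet F, and 6.48, 5.67, 5.56 and 5.03 in diet H. The lowest values of both lay in A1, E3, F1 and H4, and all values of both lay above the lower quartiles of the arrays, most of them under the medians. E4, low for the response genes, read 5.76 for IFNW1 and 5.46 for IFNL3. The means over 16 birds were 5.49 and 5.67.

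IRF5, a regulatory factor, differed by 0.38 (SE 0.118; E minus A) and by -0.35 (SE 0.118; H minus E), higher in diet E each time, opposite in sign to the response genes (limma adjusted p = 0.613 and 0.479). Its diet means were 5.97 ± 0.12, 6.35 ± 0.16, 6.19 ± 0.09 and 6.0 ± 0.19, from A to H (SD, n = 4). By range, lower first, IRF5 differed by 0.34 and 0.42 for E minus A and by -0.22 and -0.49 for H minus E. PTPN11, a phosphatase of receptor signalling, differed by 0.67 (SE 0.223) and IFNGR2, the second chain of the interferon gamma receptor, by 0.45 (SE 0.151) between diets A and H, higher in diet H (limma adjusted p = 0.266 and 0.274). In the lower and the upper range these were 0.68 and 0.66 for PTPN11 and 0.56 and 0.33 for IFNGR2. SAMHD1, a nucleotide hydrolase, differed by -0.63 (SE 0.318; E minus A) and 0.57 (SE 0.318; F minus E), and RNF213, a giant ubiquitin ligase, by 0.64 (SE 0.332; F minus E; limma adjusted p = 0.665, 0.9998 and 0.9998). These lay in the upper range, where SAMHD1 differed by -1.15 (E minus A) and 1.24 (F minus E) and RNF213 by 1.34, against -0.11, -0.10 and -0.07 in the lower range. XAF1, an interferon-induced pro-apoptotic gene, differed by 0.39 (SE 0.162) and the adaptor TICAM1 by 0.28 (SE 0.134) between diets A and F, higher in diet F (limma adjusted p = 0.721 and 0.731). XAF1 lay between 3.08 and 4.01 on all arrays, under every lower quartile. By range, lower first, XAF1 differed by 0.48 and 0.29, and TICAM1 by 0.54 and 0.01 in the same order. MAVS, the adaptor downstream of IFIH1, differed by -0.34 (SE 0.13; H minus F; limma adjusted p = 0.842), or -0.41 and -0.27 by range. NT5C3A, a pyrimidine nucleotidase, lay higher in diet H, by 0.62 (SE 0.243) than in diet E and by 0.65 (SE 0.243) than in diet F (limma adjusted p = 0.512 and 0.842). Those were 0.63 and 0.84 in the lower range and 0.61 and 0.45 in the upper.

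Between the ranges 7 of the 38 rose in the upper one (background 6.42%) and 0 fell. They were JAK2, a receptor kinase, the endosomal RNA sensor TLR3, the kinase TBK1 and its partner TANK, PTPN11, PARP11 and N4BP1, an RNA-cutting factor in mammals. TLR3 rose by 0.80 (SE 0.145; limma adjusted p = 0.0037), with values of 6.53, 7.08, 7.98 and 8.0 in diet A, 6.93, 6.76, 7.23 and 7.55 in diet E, 6.68, 7.35, 7.87 and 7.96 in diet F, and 7.87, 7.18, 8.33 and 7.86 in diet H. Upper-range birds lay at 7.23 or above and lower-range birds, H1 apart, at 7.35 or below. N4BP1 rose by 0.49 (SE 0.0727; limma adjusted p = 0.0011) and PARP11 by 0.59 (SE 0.0948; limma adjusted p = 0.00188). The DNA sensor CGAS spanned only 6.91 to 7.50, and the RNA sensor TLR7 spanned 4.17 to 5.87, partly under the lower quartiles.

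The change of the E minus A difference from the lower to the upper range was -1.80 (SE 0.43) for MOV10, an RNA helicase, and -1.21 (SE 0.398) for GBP1, a guanylate-binding protein, the smallest p of the list (limma adjusted p = 0.496 and 0.568). None of the 38 passed. MOV10 read 8.73, 9.12, 8.84 and 9.30 in diet A, 9.17, 9.10, 7.59 and 7.38 in diet E, 8.41, 8.96, 9.13 and 8.62 in diet F, and 9.23, 8.83, 8.62 and 7.79 in diet H, lowest in E4, E3 and H4.

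Markers of cell types were set beside these values. T and NK lymphocyte markers, 9 measured of 11, had mean deviations of 0.53, -0.52, 0.62 and -0.10 in diet A, -0.13, 0.05, -0.10 and -0.06 in diet E, 0.03, 0.28, 0.08 and 0.05 in diet F, and -0.14, -0.11, 0.22 and -0.71 in diet H. They were lowest in H4, followed by A2, and highest in A3 and A1, and lay near their mean in E3, E4 and F1. H4 was also the bird with the lowest LY6E, SOCS1, IRF1 and IRF8. E3 and E4, at -0.10 and -0.06 in these markers, were the next lowest for each of those genes. A2, at -0.52 in the markers, had a mean deviation of 0.04 over the interferon response genes. B lymphocyte markers, 7 measured of 9, deviated by 0.63, 0.05, 0.16 and -0.14 in diet A. In diet E they deviated by -0.02, 0.65, -0.03 and -0.30. In diet F these deviations were 0.20, -0.19, -0.32 and 0.04, and in diet H -0.38, -0.32, 0.34 and -0.37. Macrophage markers, 5 measured of 11, deviated by 0.96, 0.36, 0.21 and -0.19 in diet A, -0.01, 1.08, -0.20 and -0.64 in diet E, 0.59, -0.80, -0.22 and -0.18 in diet F, and -0.34, -0.46, 0.70 and -0.88 in diet H, high in A1 and F1 as in E2 and H3, and low in H4 and E4 as in F2. Fibroblast markers, 4 measured of 6, deviated by 0.93, 0.62, 0.34 and -0.32 in diet A, -0.01, 1.44, 0.27 and -0.88 in diet E, 0.74, -0.96, -0.70 and -0.36 in diet F, and -0.46, -0.79, 0.99 and -0.83 in diet H, and enterocyte markers, 9 measured of 10, stayed between -0.34 and 0.19. A1, E3, E4, F1 and H4 were picked by the values of the interferon response genes. Among these birds fibroblast markers lay below 0 in E4 and H4 and above it in A1, E3 and F1. Enterocyte markers read -0.29 in A1 and 0.15, 0.19, 0.05 and 0.14 in E3, E4, F1 and H4. The part of cell composition in the differences between birds was not tested.

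**Figure D5:**
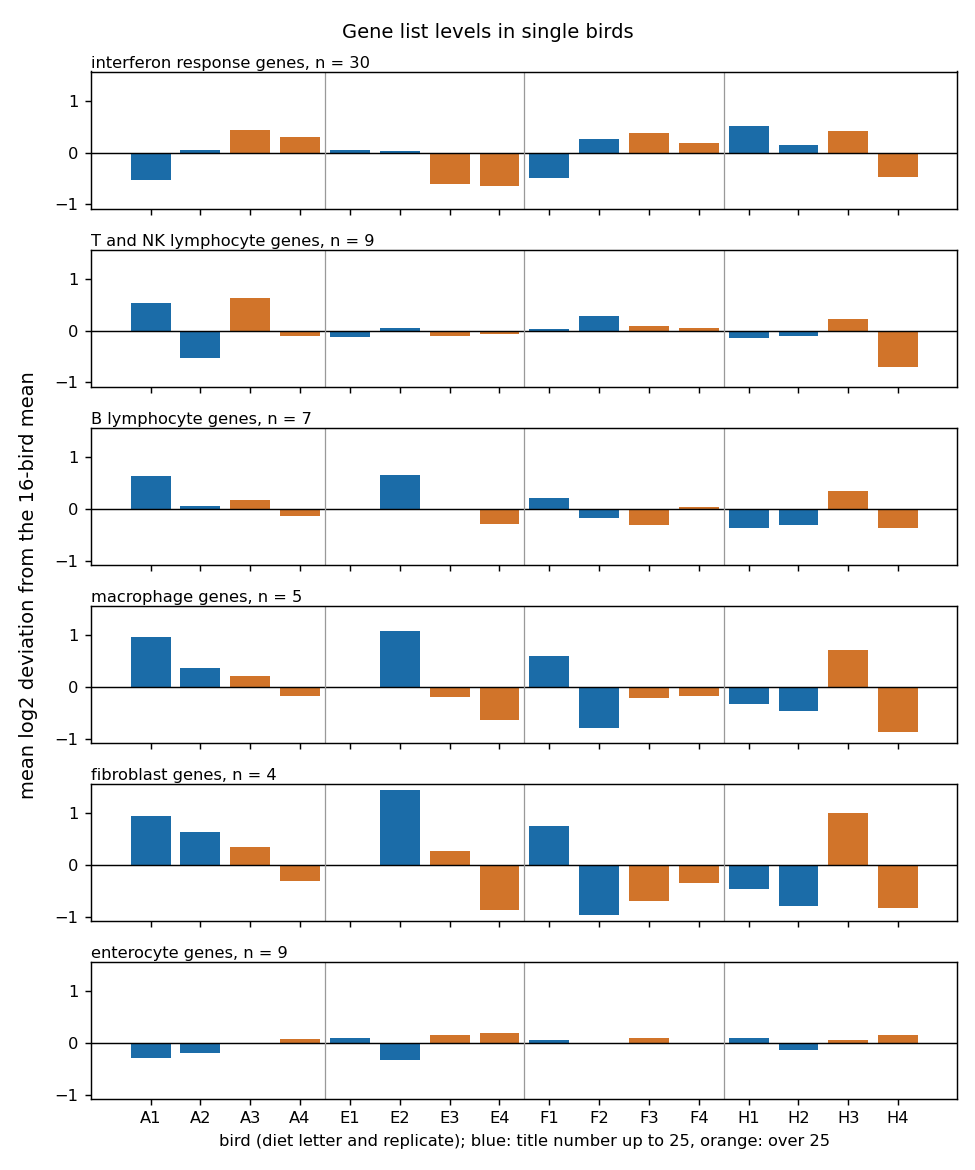
Bars give, for each of the 16 birds, the mean log2 deviation from the 16-bird mean over the genes of a list, blue for the lower and orange for the upper range of title numbers, with the number of genes in each panel. Interferon response genes lie below 0 in A1, E3, E4, F1 and H4. Macrophage and fibroblast markers lie above 0 in A1 and F1 and below 0 in E4 and H4. In E3 macrophage markers lie below 0 and fibroblast markers above it.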

How the data were processed

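Total RNA from each jejunum was copied and labelled with biotin for 1-colour Affymetrix arrays, per the labels' protocols, and GCOS 1.1.1 is named per the submitters' processing notes. The deposited table holds values from 0.79 to 14.48, read as log2 intensities. How they were summarized and normalized, and the base of the log, is not given in the sources used here, and folds rest on base 2. Symbols came from the platform annotation at GEO, which gave 1 symbol to 12300 of 20804 probe sets, several to 256 and none to 8248.

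With limma 3.58.1 in R 4.3.3, all 16 arrays were fitted with a mean for each diet, giving a moderated F test and 6 pairwise contrasts (the letter named first minus the second). Benjamini-Hochberg adjustment ran over the whole table, with a threshold of 0.05. Range contrasts used diet plus range, or a mean per diet and range. The procedure was tested on simulated data. Every array is a separate bird, and 4 per diet limit the precision. "Background" is the share of all probe sets meeting the same criterion.

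The members and lists were chosen with earlier results of these data known. Every measured member is named. Values in every bird are given for a set fixed by role and for the members with the smallest p per comparison (2 per pair and over the diets, 3 per range test). Of the second list, the 2 smallest p per comparison and TLR3, TLR7, IFNG and CGAS are given. IFNW1 and IFNL3 were added outside this rule, and the genes of that list called between the ranges are named. The alternatives tried were median centring, quantile normalization, a filter on the lowest 25% of probe sets, an intensity trend, the mean over probe sets, only the arrays compared, title range or number as a covariate, neighbouring title numbers as a random block, each range alone, and leaving out each bird. Figures used Python 3.11.15 and matplotlib 3.10.9.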

Additional observations from a re-analysis of the deposited data

Results flagged for a closer look

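In 12 of 120 groups of 4 birds, 1 gene in 1 diet each, the highest or lowest bird stood apart from the other 3 by Dixon's criterion (gap over range above 0.829), where chance gives about 5% of groups, or 6. The share of such groups over all probe sets was not computed, so whether 12 of 120 is many for these arrays is unknown. The genes vary together, so the 12 groups are not separate events. F1 stood apart in 8 of them, always low. It read 7.84 for IFIH1 where the other diet F birds read 8.95 to 9.13, 7.68 for IFNAR1 against 8.77 to 8.93, 9.60 for IRF1 against 10.19 to 10.26, and 8.93 for PARP9 against 9.67 to 9.82. It read 9.64 for IFI35 against 10.21 to 10.32, 9.63 for IFIT5 against 11.25 to 11.47, 11.17 for CMPK2 against 11.87 to 12.01, and 8.51 for ZC3HAV1 against 9.19 to 9.21. A1 read 9.98 for OASL where the other diet A birds read 11.06 to 11.18, A2 read 9.90 for IRF1 against 10.11 to 10.14, and A3 read 9.26 for IRF2 against 8.86 to 8.92. E2 read 9.45 for IFNGR1 against 9.61 to 9.64 in the other diet E birds.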

How the results depend on the processing

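Recounts covered the 6 pairs, the test over the diets, the joint F test of diets by range and the E minus A change between ranges. In these, 0 of 230 recounts under the alternatives named any gene of the set. The F minus A and H minus A changes between ranges were not part of the recounts. Of 162 recomputed medians 11 changed sign. In the lower range alone the sign changed for E minus A (0.261) and F minus E (-0.14). In the upper range alone it changed for F minus A (-0.07), H minus A (-0.341) and H minus F (-0.279). The other changes came on leaving out single birds, for F minus A, H minus A and H minus F. The sign was kept at 0.575 for H minus A in the lower range alone, and at -0.877 (E minus A) and 0.916 (F minus E) in the upper. IFIH1 had a difference of -0.0129 between diets E and F in the lower range alone, against 0.57 over all birds. Leaving out single birds moved the medians between -0.504 and -0.197 for E minus A, -0.139 and 0.194 for F minus A, -0.0764 and 0.24 for H minus A, 0.198 and 0.496 for F minus E, 0.269 and 0.551 for H minus E, and -0.0762 and 0.243 for H minus F. The count of genes called between the ranges lay between 0 and 2 when single birds were left out. With the settings that kept all birds together, quantile normalization among them, the E minus A median lay between -0.352 and -0.291 and the H minus E median between 0.374 and 0.43. No paired analysis was possible because the labels give no replicate numbers that diets share. Neighbouring title numbers as a random block had an estimated correlation of 0.173. Every such block held birds of the same diet and the same range. The number of arrays limits the precision, and signal over background was not measured.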
